A study of Mus musculus with 2 samples.

Results

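Gm47761, Gm37324 and Gm43305 are 3 noncoding loci of the mouse genome whose transcripts were matched on both strands by small RNAs of piRNA length. They are 3 of the 16084 genes with RNAs of this length that matched no other annotated gene, and they were selected on the measured counts of their reads, which were numerous on both the sense and the antisense strand and often started with uracil. The libraries came from whole testes of C57BL/6 fetuses at embryonic day 16.5, 1 library labelled WT and 1 labelled Hsp90α KO, each from the pooled total RNA of 20 testes, with no other treatment. The KO mice lack HSP90α, the chaperone isoform that the study reports in germ cells, while HSP90β remains in germ and somatic cells. Neither genotype has a replicate library, so every interval and test below covers the counting of reads and has no replicate check. An RNA was assigned to a locus when it was 24–33 nt long and matched the transcripts of that locus exactly and those of no other gene. By this rule the loci held 849 distinct RNAs in WT and 404 in KO, and 190 of them occurred in both. All other genes together held 69496 in WT and 41692 in KO, of which 7947 occurred in both.

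PIWI-interacting RNAs (piRNAs) are small RNAs that guide PIWI proteins to complementary transcripts, and in fetal testes they are made in prospermatogonia, the arrested male germ cells, to silence transposons. Primary piRNAs are cut from long single-stranded precursors and usually start with uracil (U). When a PIWI protein such as MILI slices a complementary RNA, the cut lies opposite a fixed base of its guide, so that the new RNA and the guide overlap at their 5′ ends by 10 nt and the new RNA tends to carry adenine (A) as its 10th base, a relation called the ping-pong cycle. The cycle needs RNAs of both strands, and for that reason loci with sense and antisense piRNAs are of interest. The products are loaded onto MILI or onto MIWI2, which carries somewhat longer RNAs.

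All 3 loci are annotated on the minus strand (GRCm38). Gm47761 (ENSMUSG00000112478.1) is a lincRNA gene at chr10:17318085-17323228 with 2 annotated transcripts of 3 exons each. It lies within the span of another lincRNA gene, Gm47760, of the same strand, none of whose exons overlaps it. Gm37324 (ENSMUSG00000104329.1) is a single exon of the class TEC, used for loci that await experimental evidence, at chr3:155771325-155775828, and Gm43305 (ENSMUSG00000105703.2) is a processed transcript at chr14:54292443-54297456, of which 1 transcript has 1 exon and the other has 2. No annotated gene of the opposite strand overlapped any of the loci, and the nearest other gene lay 12537 nt from Gm37324 (Gm23038) and 7504 nt from Gm43305 (Olfr49). The antisense RNAs described here therefore had no annotated precursor.

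The RNAs below carry the strand pattern of each locus. The first set shows, for each locus, the pair of opposite-strand RNAs whose 5′ ends overlapped by 10 nt and whose ends had the largest product of reads. The sequences are written 5′ to 3′ with T for U, and capitals mark the 10 bases that pair with each other.
Gm47761 sense: CAAAGATGCTtttttctgtttgaggtt
Gm47761 antisense: AGCATCTTTGagatccaggactgtgtacc
Gm37324 sense: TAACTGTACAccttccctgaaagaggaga
Gm37324 antisense: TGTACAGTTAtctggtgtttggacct
Gm43305 sense: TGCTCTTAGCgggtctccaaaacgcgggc
Gm43305 antisense: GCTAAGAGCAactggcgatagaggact
The Gm37324 pair lay at chr3:155771626-155771654 on the minus strand and chr3:155771645-155771670 on the plus strand. Its sense RNA was read 11 times in WT and 7 times in KO, and its antisense RNA 20 and 6 times. Each of these RNAs started with U and had A as its 10th base, which follows when both members of a pair start with U. The sense members of the other pairs, at chr10:17321253-17321279 and chr14:54295822-54295850, were read 1 time each, in WT, whereas their antisense members, at chr10:17321270-17321298 and chr14:54295841-54295867, were read 20 and 6 times in WT and 3 and 4 times in KO. A well-read RNA on each side of the pair was thus seen at Gm37324 and not at Gm47761 or Gm43305.

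The second set shows the most frequent RNA of each strand, with the first and the 10th base in capitals.
Gm47761 sense: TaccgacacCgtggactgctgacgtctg
Gm47761 antisense: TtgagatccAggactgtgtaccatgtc
Gm37324 sense: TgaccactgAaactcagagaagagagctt
Gm37324 antisense: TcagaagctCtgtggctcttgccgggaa
Gm43305 sense: TaaatgtttAcactgatagccgctatgcct
Gm43305 antisense: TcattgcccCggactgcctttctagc
All 6 started with U, the base by which the loci were chosen, and 3 of the 6 had A at the 10th position. The Gm47761 RNAs, at chr10:17319919-17319946 (sense) and chr10:17321277-17321303 (antisense), were read 30 and 78 times in WT and 9 and 32 times in KO. The Gm37324 RNAs, at chr3:155771576-155771604 and chr3:155771838-155771865, were read 22 and 46 times in WT and 18 and 19 times in KO. At Gm43305, at chr14:54294665-54294694 and chr14:54295964-54295989, the counts were 13 and 16 in WT and 4 and 9 in KO. All 6 were less frequent in KO than in WT, the sense RNA of Gm37324 by the smallest margin.

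The libraries held 6409305 (WT) and 5589326 (KO) reads of 11 to 48 nt, of which 2523084 and 2561491 matched annotated miRNA hairpins. Counts are given as reads per 1000000 miRNA-hairpin reads (RPM), on which scale 3 reads correspond to 1.19 in WT and 1.17 in KO. Reads of the targeted gene Hsp90aa1 were too few to check the genotype labels, with 2 in WT and 10 in KO among sense fragments of 16–36 nt, and fragments of this size do not measure the mRNA. Germ cell miRNAs of the miR-290 cluster (5 of 6 detected, Mir292a at 0) summed to 639 RPM in WT and 858 in KO, a KO/WT ratio of 1.34 (95% interval 1.26–1.43), with single members between 1.153 and 1.48. The gonadal support, mesenchymal and endothelial miRNA lists had ratios of 1.06, 1.02 and 1.003 with all members detected. Single mesenchymal members ranged from 0.811 to 1.32, and single neuronal members from 0.841 to 1.97. Erythroid and leukocyte miRNAs had ratios of 0.7997 and 0.819 (all members detected), muscle and neuronal miRNAs 0.867 and 0.868 (4 of 5 and 6 of 7 members detected), and the liver miRNA Mir122 was read 16 times in WT and 1 time in KO. The part of these shifts in the results below was not tested.

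RNAs of 24–33 nt were fewer in KO testes at each of the loci and on both strands. Of the 319 genes with 50 or more such reads in WT and KO combined, 302 (94.7%) had a KO/WT ratio below 1. The same was true of 267 of the 280 genes among these with first U in at least 50% of reads (95.4%). Gm47761 gave 771 reads in WT and 299 in KO, or 306 and 117 RPM, a KO/WT ratio of 0.382 (95% Clopper-Pearson interval 0.333–0.437). Gm37324 gave 551 and 262 reads, or 218 and 102 RPM, a ratio of 0.468 (0.403–0.544). Gm43305 gave 569 and 174 reads, or 226 and 67.9 RPM, a ratio of 0.301 (0.253–0.358). Counted by specific RNAs, the loci thus had similar levels in WT apart from the higher Gm47761. With all RNAs matching each locus, the WT levels were 1028 RPM at Gm47761, 713 at Gm37324 and 531 at Gm43305. The interval of the ratio of Gm43305 lay below that of Gm37324. In whole-testis RNA, fewer germ cells and less RNA per germ cell cannot be told apart. The germ cell miRNAs were higher in KO, and the bearing of this on the ratios was not tested. Summed over the loci, 1891 reads in WT compared with 735 in KO, a ratio of 0.383 (0.351–0.417).

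Low ratios were common among genes with such RNAs. All 3 loci had a ratio below 0.5, as did 178 of the 319 genes with 50 or more such reads in WT and KO combined (55.8%), and 164 of the 280 genes among these with first U in at least 50% of reads (58.6%). Gm37324 was above 0.5 with all reads of the library (0.545) or structural RNA fragments (0.536) as the normalizer and with each distinct sequence counted once (0.634), and Gm47761 with the last (0.504). With all reads as the normalizer 141 of the 319 genes were below 0.5. The median ratio of the 280 first-U genes was 0.445 with quartiles of 0.327 and 0.616, so that Gm47761 and Gm43305 lay below the median and Gm37324 above it. When all other genes were pooled, their RNAs of 24–33 nt fell from 108671 to 62256 reads, a ratio of 0.564. The ratio of Gm43305 was 0.534 times this value (0.448–0.634; Fisher's exact test, two-sided, adjusted p = 4.25e-13), that of Gm47761 0.677 times (0.5901–0.775; adjusted p = 3.01e-08) and that of Gm37324 0.8300 times (0.713–0.964; adjusted p = 0.0389), with adjustment over the 12 Fisher tests made at the loci. These tests compare the reads of 2 libraries and not the genotypes. Against only the other genes with frequent first U, the quotient was 1.01 for Gm37324 (adjusted p = 0.8499 by Fisher's exact test) and was 0.652 for Gm43305 and 0.827 for Gm47761, both past the threshold. With each distinct sequence counted once, the quotients were 0.853 for Gm47761 (adjusted p = 0.1896 by Fisher's exact test) and 1.07 for Gm37324 (adjusted p = 0.607), neither past the threshold.

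**Figure D1:**
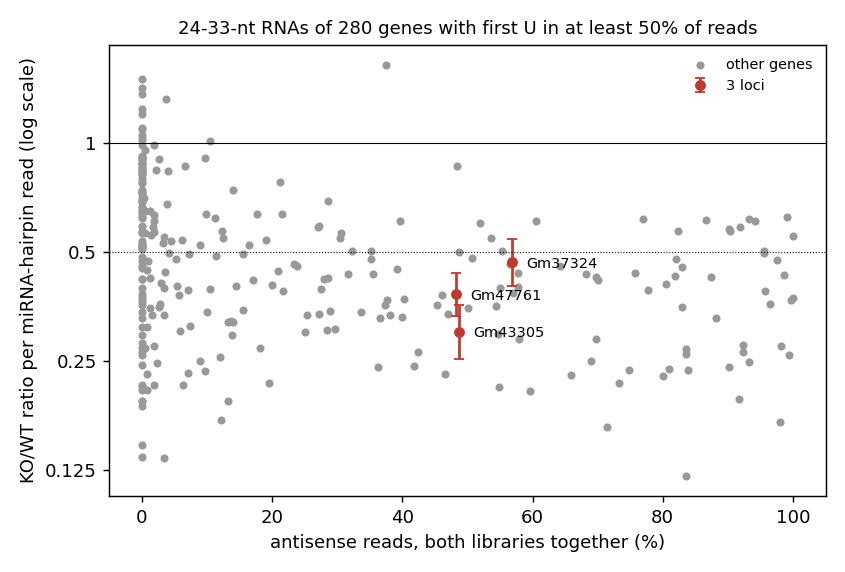
KO/WT ratio per miRNA-hairpin read (log scale) against the share of antisense reads in WT and KO combined (%) for the 280 genes with at least 50 reads of 24–33 nt and first U in at least 50% of them. Grey points are other genes and red points the 3 loci with 95% Clopper-Pearson intervals; the solid line marks a ratio of 1 and the dotted line 0.5, and the loci lie inside the cloud of genes of similar strand balance.

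Among these 280 genes a balanced strand pattern was uncommon, and the median share of antisense reads was 9.71%. Of the 280, 27 had 40 to 60% of reads in antisense, and their median KO/WT ratio was 0.382. Of the 53 genes with at least 200 reads, 5 others fell in this range. The genes nearest in antisense share to Gm47761 (48.2% in WT and KO combined) and Gm43305 (48.7%) were Gm42863 (50.1%) and the protein-coding gene Noct (50.6%), with KO/WT ratios of 0.3500 and 0.481. The nearest to Gm37324 (56.8%) were Gm48274 (57.0%) and Gm48362 (56.5%), with ratios of 0.386 and 0.464. By number of reads the loci ranked 6 (Gm47761), 11 (Gm37324) and 13 (Gm43305) among first-U genes, after D10Wsu102e, Gm42427, Noct, Gm37924 and Gm26809, whose antisense shares ran from 16.5 to 99.0%.

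The fall was shared by both strands of each locus. At Gm47761 the sense RNAs went from 401 to 153 reads (ratio 0.376) and the antisense RNAs from 370 to 146 (0.389), and no difference in ratio between the strands passed the test (quotient of antisense to sense 1.03, 95% interval 0.784–1.36; Fisher's exact test, adjusted p = 0.838). At Gm37324 the sense RNAs went from 222 to 129 reads (0.572) and the antisense RNAs from 329 to 133 (0.398), a quotient of 0.696 (0.512–0.946; adjusted p = 0.0451 by Fisher's exact test). The antisense share at this locus went from 59.7% in WT (95% Wilson interval 55.6–63.7) to 50.8% in KO (44.7–56.8). This difference lost its significance when the most frequent 5′ end of each strand was left out (0.7797) and turned to 1.18 when every distinct sequence was counted once. At Gm43305 the sense RNAs went from 302 to 79 reads (0.258) and the antisense RNAs from 267 to 95 (0.3505), a quotient of 1.36 (0.954–1.94; adjusted p = 0.166 by Fisher's exact test).

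**Figure D2:**
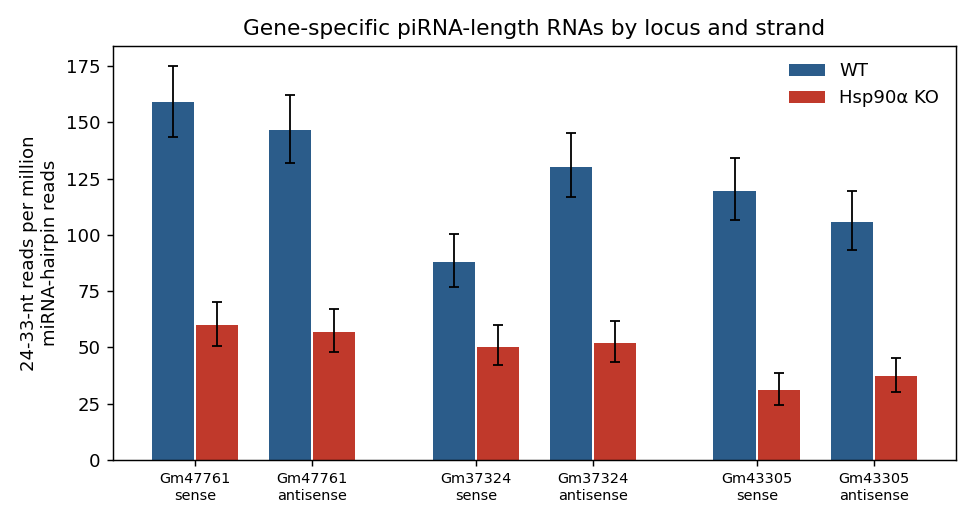
Reads of 24–33 nt per 1000000 miRNA-hairpin reads (RPM) for the sense and antisense RNAs of each locus, with WT as blue and KO as red bars and exact 95% Poisson intervals as error bars. Every KO bar is lower than its WT bar, and the smallest gap is that of the Gm37324 sense RNAs (88.0 and 50.4).

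The RNAs of Gm37324 came from a small part of the gene and those of Gm43305 from most of it, whereas those of Gm47761 came from the parts whose sequence is specific to it. All 5′ ends at Gm37324 lay between 3346 and 4404 nt from the annotated 5′ end of a gene of 4504 nt. The first 3346 nt gave 0 of 551 reads in WT and 0 of 262 in KO, which allows shares of up to 0.544% and 1.145%, although 3331 windows of 26 nt in that stretch are found in no other gene and could have been counted. On the sense strand 4 of 69 ends held 50% of the reads of both libraries, and on the antisense strand 3 of 58. The most frequent ends were at chr3:155771604 (sense, 49 reads in WT and 39 in KO) and chr3:155771838 (antisense, 80 and 32), 234 nt apart. The ends within 20 nt of the antisense one held 48.02% of antisense reads in WT and 46.6% in KO. The counted reads of Gm37324 thus formed a few sharp peaks of both strands that were interleaved within about the last kilobase of the annotated gene. In the stretches of 500 nt starting at 3500 and 4000 nt, 250 of 500 and 272 of 479 windows are specific to the gene. Reads of the other windows were not counted, so gaps between these peaks need not lack RNAs.

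At Gm47761 the most frequent sense end, chr10:17319946 (55 reads in WT and 22 in KO), and the most frequent antisense end, chr10:17321277 (87 and 37), were 1331 nt apart. The former lies in exon 2 of both annotated transcripts. The latter lies in exon 1 of the shorter transcript and in the first intron of the longer one. Antisense ends within 20 nt of that peak held 250 of 370 antisense reads in WT (67.6%) and 101 of 146 in KO (69.2%), while the same stretch gave 5 and 1 sense reads. Around the sense peak there were 137 sense reads in WT (34.2% of the strand) and 40 in KO (26.1%), beside 2 and 1 antisense reads. The largest peaks of the strands were thus apart, but 111 of 401 sense reads in WT and 60 of 153 in KO fell in the same 500-nt stretch as the antisense peak. Of the 26-nt windows of Gm47761, 32.5% are specific to it, since 61.7% also occur in Gm42047 and 33.6% in Gm48362. Stretches of 500 nt starting at 1500 and 3000 nt held 354 and 440 of its 1095 specific windows and most of its reads, and the stretch before the first end held 22. Reads outside the specific windows were not counted, so the gaps in the map of Gm47761 follow its specificity.

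At Gm43305 the sense reads were dispersed. Their 182 ends included 32 that held 50% of the reads, and the most frequent, at chr14:54294694, had 13 reads in WT and 4 in KO. The antisense reads were concentrated, with 6 of 124 ends holding 50% and the end at chr14:54295964 giving 72 reads in WT and 24 in KO, or 26.97% and 25.3% of the strand. This end lies in the single exon of the longer transcript and in the intron of the other one. RNAs read 1 time made up 49.6% of the WT reads of the locus (45.5–53.7), against 26.6% at Gm47761 and 21.4% at Gm37324. Of its 306 ends 55 occurred in both libraries, against 64 of 228 at Gm47761 and 43 of 127 at Gm37324. The same share for the ends of other genes is not given here.

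**Figure D3:**
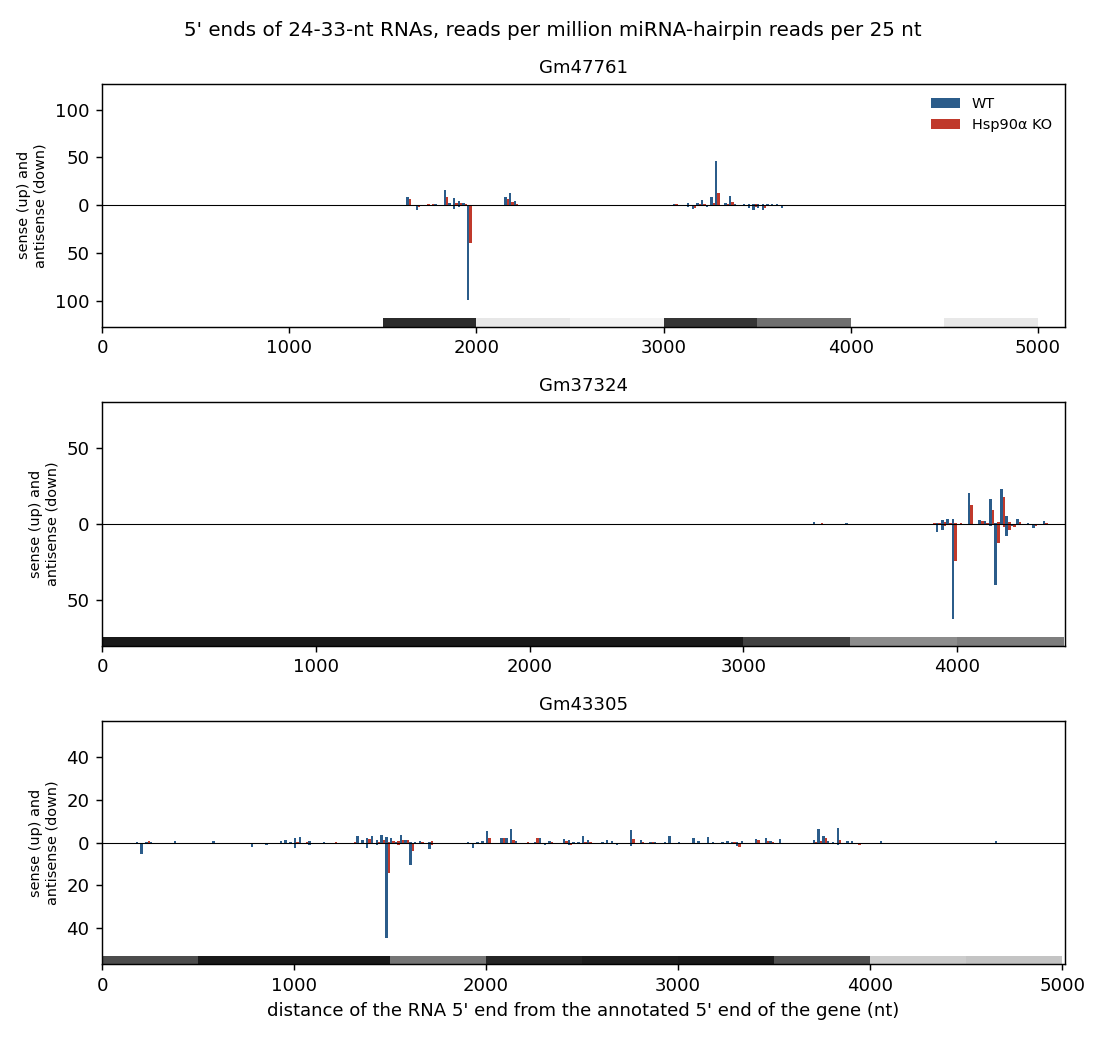
Position of the 5′ ends of 24–33-nt RNAs as the distance from the annotated 5′ end of each gene (nt, horizontal axis) and RPM in steps of 25 nt (vertical axis), with sense RNAs up and antisense RNAs down and the KO library in red and WT in blue. The grey strip is darker where more of the exonic 26-nt windows are specific to the gene and white where none is; Gm37324 has a black strip and no RNAs over its first 3346 nt.

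The counted RNAs were selected for piRNA length. Within that range, sense RNAs were longer on average than antisense RNAs at Gm37324 and Gm43305 in both libraries. At Gm47761 the mean lengths of sense and antisense RNAs were close, at 27.77 and 27.82 nt in WT and 27.57 and 27.60 nt in KO. The most frequent length was 28 nt in WT at each locus, with means between 27.6 and 27.8 nt. The sense RNAs of Gm37324 peaked at 29 nt, with a mean of 28.3 nt (SD 1.79 over reads) in WT and 28.5 nt (SD 2.11) in KO. Its antisense RNAs peaked at 28 nt, with means of 27.04 nt (SD 1.78) and 27.5 nt (SD 2.02). RNAs of 28–32 nt, the range reported for MIWI2, made up 71.2% of its sense reads in WT (64.9–76.7) and 69.0% in KO (60.6–76.3), but 39.2% (34.1–44.6) and 43.6% (35.5–52.1) of its antisense reads. The intervals of the strands did not overlap in either library. These intervals treat reads as independent, although 4 of 69 sense and 3 of 58 antisense ends held 50% of the reads. At Gm43305 the corresponding shares were 60.9% for sense (55.3–66.3) and 50.9% for antisense reads (44.97–56.9) in WT, and 68.4% (57.5–77.6) and 36.8% (27.8–46.9) in KO, where the intervals did not overlap either. At Gm47761 they were 59.9% and 52.2% in WT and 50.98% and 43.2% in KO, with overlapping intervals in both libraries.

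RNAs of 28–32 nt and those of 24–27 nt, the range reported for MILI, both fell at each locus. At Gm47761 the longer class went from 433 to 141 reads (ratio 0.321) and the shorter from 334 to 155 (0.457), a quotient of 0.702 (0.531–0.927; Fisher's exact test, adjusted p = 0.0389). Fragments of structural RNAs of the same classes, taken as the normalizer, brought this quotient to 0.844 (adjusted p = 0.327 by Fisher's exact test). At Gm37324 the longer class went from 287 to 147 reads (0.505) and the shorter from 257 to 102 (0.391), a quotient of 1.29 (0.942–1.77; adjusted p = 0.183 by Fisher's exact test), and with the structural normalizer it was 1.55 (adjusted p = 0.0183 by Fisher's exact test). At Gm43305 the reads went from 320 to 89 (0.274) and from 246 to 84 (0.336), a quotient of 0.815 (0.571–1.16; adjusted p = 0.342 by Fisher's exact test). The point estimates thus had different directions at Gm37324 and at the other loci, and the difference between loci was not tested.

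**Figure D4:**
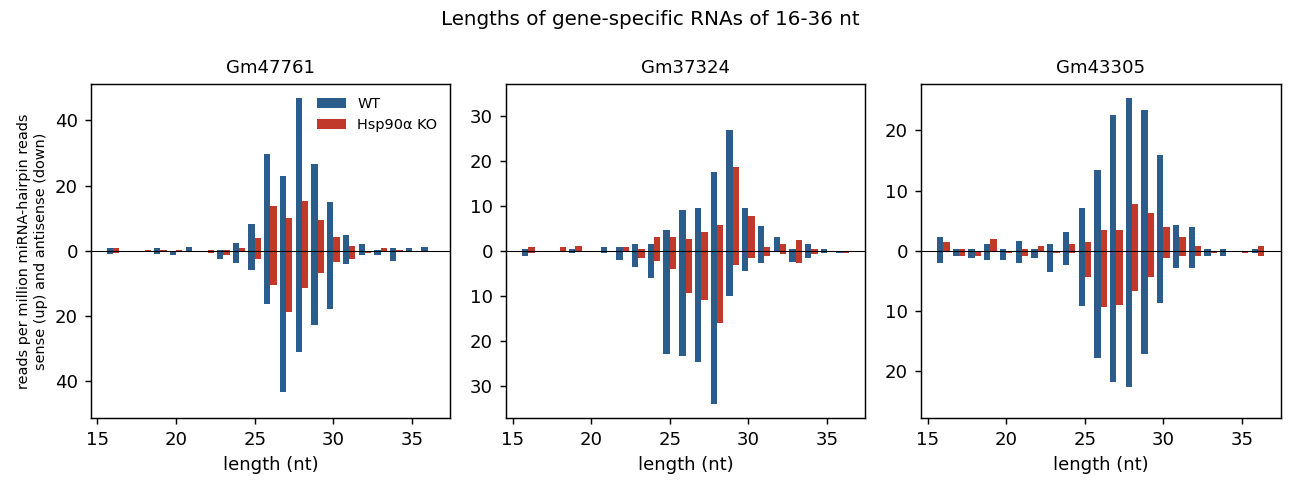
Lengths of RNAs of 16–36 nt specific to each locus (horizontal axis, nt) in RPM (vertical axis), with sense RNAs up and antisense RNAs down and the KO library in red and WT in blue. At Gm37324 the sense RNAs peak at 29 nt and the antisense RNAs at 28 nt with a shoulder of shorter RNAs; few reads are shorter than 24 nt.

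First-position U was found in 66.0% of WT and 72.2% of KO reads at Gm47761, 63.3% and 68.7% at Gm37324, and 72.2% and 78.7% at Gm43305, which describes how the loci were chosen. The 10th base was not used in the choice. It was A in 42.3% of WT reads (38.8–45.8) and 44.8% of KO reads (39.3–50.5) at Gm47761, in 44.8% (40.7–49.0) and 50.4% (44.4–56.4) at Gm37324, and in 40.1% (36.1–44.2) and 37.4% (30.5–44.7) at Gm43305. Structural RNA fragments of the same length had A there in 24.7% of WT and 23.4% of KO reads, below each of these intervals. Those fragments differ in sequence from the loci, so their share is not a chance level for the loci, and an excess of A was not tested. No change between the libraries passed the test (differences of 2.53, 5.55 and -2.71 percentage points with Fisher's exact adjusted p = 0.585, 0.229 and 0.585). At Gm37324 the change passed with all matching RNAs (8.74 points, adjusted p = 9.11e-05 by Fisher's exact test) and with RNAs of at least 2 reads (10.9 points, adjusted p = 0.0376).

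The 10th A was uneven between strands and between RNAs. At Gm37324 it occurred in 65.3% of sense reads in WT (58.8–71.3) and 69.8% in KO (61.4–77.0), but in 31.0% (26.2–36.2) and 31.6% (24.3–39.9) of antisense reads. The sense RNAs of this locus, the longer ones, were therefore also the ones richer in A at the 10th base. This share rests on few ends, since 4 of 69 sense ends held 50% of the reads of both libraries. Whether these RNAs are ping-pong products was not tested. At Gm47761 the order was the other way, with 36.2% of sense and 48.9% of antisense reads in WT. At Gm43305 the strands were alike (38.4% and 41.9%), and the A was frequent in RNAs that did not start with U, at 72.2% in WT (114 of 158 reads, 64.7–78.6) and 81.1% in KO (30 of 37, 65.8–90.5). The same share among RNAs without first U was 50.4% in WT at Gm47761 and 33.2% at Gm37324.

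By reads with a partner, a 10-nt overlap of 5′ ends had its highest share at Gm37324. Of its 551 WT reads, 247 (44.8%, 40.7–49.0) had an opposite-strand partner at this overlap, against a mean of 15.7% (SD 9.16) over the 29 other overlaps from 1 to 30 nt. In KO the share was 101 of 262 reads (38.5%, 32.9–44.6), against 8.95% (SD 7.03). It ranked first in both libraries, closely followed in WT by an overlap of 12 nt (43.6%), which reached 24.4% in KO. When each pair of ends was weighted by the product of its reads, 10-nt pairs made up 23.3% of all pairs in WT and 28.2% in KO, again the highest share, and 12-nt pairs 15.9% and 11.04%. Few ends carry these values. Counted as pairs of ends regardless of reads, 9 pairs in WT had the 10-nt overlap (mean of the other overlaps 5.28, SD 1.58), as many as at 17 nt, and the 4 pairs in KO ranked 5 with ties.

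At Gm37324 a 10th A was more frequent among reads with such a partner than among those without. Among sense reads with a partner the 10th base was A in 78 of 94 (83.0%) in WT and 52 of 53 (98.1%) in KO, against 52.3% and 50% of those without. Antisense reads with a partner had it in 50.3% and 45.8%, against 14.2% and 23.5%. Reads of 1 end share their 10th base, so these shares rest on few ends. The sense end at chr3:155771604, with A there, gave 49 of the 94 sense reads with a partner in WT and 39 of the 53 in KO. A 10th A in 1 RNA and a first U in its partner are the same base pair, so the bases and the overlap are not separate observations.

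Among RNAs specific to Gm47761 and Gm43305, the 10-nt overlap was less distinct by reads with a partner and by the product of reads. At Gm47761, 172 of 771 WT reads (22.3%, 19.5–25.4) had a 10-nt partner, equal to the share at 20 nt, and 13 of 299 KO reads (4.35%, 2.56–7.30), which ranked 10 of 30. At Gm43305 the counts were 74 of 569 (13.0%, 10.5–16.02), which ranked 4 below an overlap of 3 nt (20.0%), and 6 of 174 (3.45%, 1.59–7.32). These shares rested largely on pairs with an RNA read 1 time, and with RNAs of at least 2 reads they were 0% in both libraries at Gm47761 and 2.09% and 0% at Gm43305. Weighted by the product of reads, 10-nt pairs ranked 3 in WT and 11 in KO at Gm47761, and 7 and 6 at Gm43305. Counted as pairs of ends, 10 nt ranked first in WT at both, with 17 pairs at Gm47761 (mean of the other overlaps 8.66, SD 2.78) and 14 at Gm43305 (5.79, SD 1.72). In KO the 4 pairs of ends at Gm47761 ranked 2 with ties (mean of the other overlaps 1.83, SD 1.31). The 2 pairs at Gm43305 ranked 5 with ties (1.07, SD 1.07). These counts are small, as are the 4 pairs of Gm37324 in KO. At Gm43305 the WT reads with a partner had A as the 10th base in 81.1% (60 of 74), against 33.9% of the others. At Gm47761 the order was the other way, with 38.4% of WT reads with a partner and 43.4% of those without. The chance that a read finds a partner rises with the number of reads, so the lower shares in KO cannot be told apart from its lower counts.

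By reads with a partner, 10 nt ranked first at all 3 loci once RNAs shared with other genes were included. Of all WT reads of 24–33 nt that matched Gm47761, 771 of 2593 (29.7%) were specific to it. The share was 551 of 1798 (30.6%) at Gm37324 and 569 of 1340 (42.5%) at Gm43305. This held in both libraries. At Gm47761 the share was 31.2% in WT and 20.2% in KO, against means of 11.7% (SD 3.12) and 6.06% (SD 2.49) over the other overlaps. At Gm37324 it was 36.99% and 35.1%, and at Gm43305 32.3% and 25.3%. By the product of reads, however, 10-nt pairs ranked second at Gm43305, after 5 nt (20.9% and 28.2% in WT, 18.1% and 32.6% in KO), and at Gm47761 in KO, after 14 nt (10.5% and 12.1%). Shared RNAs could come from other copies of the sequence, so these pairs need not have formed at the locus. The 3 loci shared no 26-nt window with each other.

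**Figure D5:**
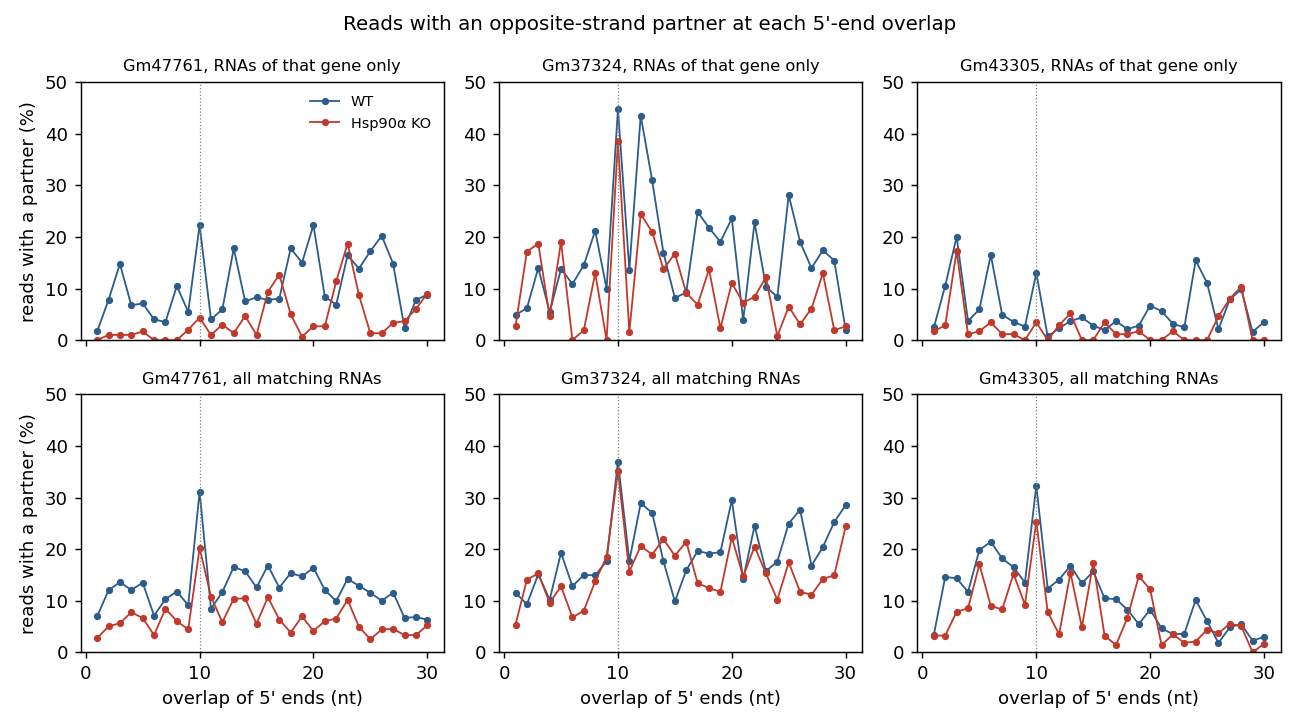
Share of 24–33-nt reads with an opposite-strand partner (%) for each overlap of 5′ ends from 1 to 30 nt, for RNAs of the locus only (top) and for all RNAs matching it (bottom), with the KO library in red and WT in blue, with a dotted line at 10 nt. The 10-nt point is the highest for Gm37324 in the top row and for all 3 loci in the bottom row.

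Shorter RNAs that accompany ping-pong cleavage were too rare to compare. RNAs of 19 nt numbered 4 in WT and 2 in KO at Gm47761, 2 and 3 at Gm37324, and 7 and 5 at Gm43305, and those of 16 nt between 3 and 11 in any library. None of the 19-nt RNAs lay next to the pairs shown above. A sign of phased cutting, in which the next RNA starts 1 nt after the 3′ end of the previous one on the same strand, was not seen in WT. There 18 reads at Gm47761 had this spacing, against a mean of 29.3 (SD 9.54) for spacings of 2 to 50 nt, with 5 against 16.2 (SD 8.14) at Gm37324 and 13 against 13.9 (SD 3.84) at Gm43305. In KO the counts were 3 against 6.90 (SD 3.30), 6 against 7.67 (SD 4.57) and, above the other spacings on average, 5 against 2.63 (SD 1.65) at Gm43305, which ranked 5.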

How the data were processed

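Both libraries were single-end small RNA reads. The files deposited by the authors hold, after adaptor clipping, a count for every distinct sequence, without coordinates or normalization. The submitters' processing notes name mm9. Sequences of 16 nt or more were matched exactly on both strands to 141767 GENCODE M21 transcripts (GRCm38), which give all coordinates. RNAs matching miRNA hairpins or structural RNAs were set aside. No genome was used here, so matches elsewhere were not examined. The loci, lists and tests were chosen with earlier results of these data known.

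Ratios carry Clopper-Pearson and shares Wilson 95% intervals. The 4 tests per locus used Fisher's exact test, two-sided, with exact conditional intervals and Benjamini-Hochberg adjustment over 12. With 1 library per genotype no test compares genotypes, and reads without molecular identifiers are not independent molecules. Named genes are the loci, the 5 first-U genes with most reads, the 2 genes of at least 200 reads nearest to each locus in antisense share, and the marker miRNAs. Statistics were tested on simulated data. Analyses ran in Python 3.11.15 with scipy 1.17.1 and numba 0.67.0, tables were handled in pandas 2.3.3 and numpy 2.4.6, and plots were drawn with matplotlib 3.10.9.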

Additional observations from a re-analysis of the deposited data

How the results depend on the processing

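The KO/WT ratios of the loci stayed below 1 under all 33 alternatives tried (0.247–0.634), though not always below 0.5 at Gm37324 and Gm47761. With the main settings, 302 of the 319 genes with 50 or more reads were below 1. Counting each distinct sequence once brought the quotient against other genes to 0.853 at Gm47761 and 1.07 at Gm37324, the strand quotient of Gm37324 to 1.18 and the length quotient of Gm47761 to 0.896, and none of these passed the threshold. The remaining causes of change were not tested. Against other genes with frequent first U, the quotient of Gm37324 was 1.01. The strand quotient of Gm37324 was 0.783 for 26–30 nt, 0.813 with all matching RNAs, 0.857 with 1 mismatch and 0.7797 without the most frequent ends, none past the threshold, and with 1 mismatch that of Gm43305 was 0.967. The length quotient with structural fragments as normalizer was 0.844 at Gm47761 and 1.55 at Gm37324, and that of Gm43305 passed the threshold with all matching RNAs (0.696) and with 1 mismatch (0.754). The change in 10th A at Gm37324 passed it with RNAs of at least 2 reads (10.9 points) and all matching RNAs (8.74 points), and with 1 mismatch that at Gm43305 was 1.26 points.

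The share of reads with a 10-nt partner depended most on the RNAs counted. With RNAs of at least 2 reads it was 0% in both libraries at Gm47761, 51.5% in WT and 45.3% in KO at Gm37324, and 2.09% and 0% at Gm43305. With all matching RNAs it was 31.2% and 20.2%, 36.99% in WT at Gm37324, and 32.3% and 25.3%. With 1 mismatch it was 30.6% and 14.4% at Gm47761 and 44.8% in KO at Gm37324. With each sequence counted once it was 19.1% and 7.74% at Gm47761 and 28.2% and 23.1% at Gm37324. For 26–30 nt it was 27.7% and 21.4% at Gm37324, and without the most frequent ends it was 27.3% in WT at Gm47761 and 29.8% in KO at Gm37324. A ratio below 0.5 was found in 532 of 1052 genes (50.6%) at a minimum of 20 reads. At 200 reads it was found in 40 of 67 genes (59.7%), and with the main settings in 178 of 319 (55.8%). No paired analysis was possible because each genotype has 1 library.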
